A study of Mus musculus with 6 samples.

Results

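The transcripts described here encode tubulins, the proteins that fold, bind and remodel microtubules, and the motors that travel along them, in the perioculomotor (pIII) region of the mouse midbrain, the tissue around the oculomotor nucleus. The genes were chosen by a rule on their symbols, which uses no measured value but was set with earlier results of these data known. It gave 65 of the 5538 genes in the deposited table, in 12 families. RNA bound to eGFP-tagged ribosomes (IP) was compared with RNA taken to be that of the whole tissue (Input), in 3 libraries each. C57BL/6 mice of both groups carried CreER, a drug-dependent recombinase, driven by the promoter of the activity-regulated gene Fos, and a Cre-inducible reporter of eGFP-L10a, a tagged ribosomal protein that antibodies against eGFP pull down. All had 6 hr of sleep deprivation and 3 hr of recovery sleep, with the inducer 4-OHT injected just before one or the other phase. The series text names the neurons labelled in recovery sleep, abbreviated RS, while the labels of the libraries give IP or Input and a number only. Each repeat pooled the tissue of 4 to 5 mice, so a library stands for a pool, and the tag marks any cell type in which Fos drove CreER. Nothing in the labels says whether an IP and an Input of the same number came from 1 pool, and the p-values below measure the spread between these libraries.

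Microtubules are hollow polymers of paired alpha- and beta-tubulin that grow and shrink mainly at their plus ends. In axons they lie with plus ends outward and serve as tracks: most kinesins carry cargo outward, and cytoplasmic dynein, held to its cargo by dynactin, carries it back to the cell body. Structural microtubule-associated proteins (MAPs) stabilise the tracks, and stathmins bind free tubulin and favour disassembly. Motor neurons of the oculomotor nucleus send long axons out of the brain, and depend on this transport.

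Values are TPM, a share of all transcripts in a library corrected for transcript length, so that levels of different genes can be set side by side. The median gene stood between 27.7 TPM in IP 1 and 67.2 TPM in Input 2, and it was also low in Input 3 (31.1 TPM). Differences are therefore given on the log2(TPM + 1) scale after the median gene of the library was subtracted, and a gene with fewer TPM in IP can have a difference near 0. The table lists genes with at least 7 TPM in every library, and a gene below that in 1 library is not in it, and read depth is unknown. Libraries IP 1 and Input 3 stand apart from the rest of their groups: across the 65 genes the centred values of IP 2 correlated with those of IP 3 at r = 0.965 and Inputs 1 and 2 at 0.969. IP 1 correlated with IP 2 at 0.852 and with IP 3 at 0.884, and Input 3 with Input 1 at 0.861 and with Input 2 at 0.869. Across the groups, IP 3 correlated with Input 2 at 0.965, as high as with IP 2. Main differences are given over all 6 libraries, and a 4-library fit without IP 1 and Input 3 is given beside them. That fit leaves out the libraries that stood apart in these same data, which narrows the spread within groups. Its p-values are therefore too small to be read as usual, and its calls are given as description. All 10 general neuronal and all 5 cholinergic marker genes listed for the tissue had values, and 0 of the 6 ependymal and 0 of the 3 oligodendrocyte precursor markers did. Summed TPM of the neuronal markers overlapped between the groups, 5222 to 11171 in IP and 5662 to 8665 in Input, that of the cholinergic markers was 412 to 643 and 186 to 326, and Ly6c1, the 1 of 6 vascular markers with a value, had 50.3 to 278 and 21.9 to 35.4. Libraries are listed in the order 1, 2, 3 within each group throughout.

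Most microtubule genes had overlapping levels in IP and Input. They held 1.68, 2.66 and 2.66% of all listed TPM in IP and 3.53, 3.39 and 1.11% in Input, lowest in IP 1 and Input 3. Their median log2 difference, IP minus Input, was 0.09, beside 0.02 over all genes, and 50 of the 65 (76.9%) lay within 0.5 of 0 beside 72.6% of all genes. Of the members, 0 were called higher and 0 lower at a limma adjusted p under 0.05, as were 0% of all genes in each direction. At an unadjusted p under 0.05 there were 1 higher and 3 lower, beside 3.58% and 3.85% of all genes, and the smallest adjusted p of a member was 0.649. After centring, all 3 IP values lay above all 3 Input values for 3 members (Tuba4a, Tubg1 and Klc1, 4.62%) and below them for 5 (Stmn1, Stmn4, Mapre2, Dync1i2 and Dctn6, 7.69%), where 6.93% and 9.71% of all genes did so. Only Dync1h1, Map1a, Stmn1 and Stmn4 differed by at least 1 log2 unit, 6.15% of members beside 5.54% of all genes. In the 4-library fit limma called 4 members higher (Dync1h1, Tuba8, Map1a and Dctn1, 6.15%) and 2 lower (Stmn1 and Stmn4, 3.08%), beside 3.38% and 2.89% of all genes, and with no centring of the libraries that fit called 1 member higher (Dync1h1) and 11 lower (Stmn1, Stmn2, Stmn4, Tubg2, Tbca, Tbcb, Dynll1, Dynlrb1, Dctn3, Dctn6 and Map1lc3a), beside 2.18% and 16.9% of all genes. There Dync1h1, Stmn1 and Stmn4 passed again, while Tuba8, Map1a and Dctn1 did not (limma adjusted p = 0.0839, 0.103 and 0.066). Of the 12 family medians, those of stathmins, plus-end proteins and dynein chains were negative and that of kinesin light chains positive under every scaling tried, over 6 and over 4 libraries, and the other 8 changed sign under at least 1 of them. With each library left out in turn, the dynein median changed sign too, from -0.12 to 0.28. Those of stathmins, plus-end proteins and kinesin light chains kept theirs. These are levels in pooled tissue and in a ribosome fraction, in which fewer cells of a type and less RNA per cell cannot be told apart.

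The count of genes without overlap moved with the scaling and the libraries, for the members and for all genes. No centring left 0 members above and 3 below, beside 1.7% and 6.21% of all genes, and quantile normalization 0 members above and 5 below, beside 6.32% and 11.1% of all genes. Leaving out IP 1 gave 13 members above and 7 below, beside 11.5% and 15.9% of all genes, leaving out IP 2, 6 members above and 6 below, beside 11.7% and 13% of all genes, and leaving out IP 3, 4 members above and 5 below, beside 10.4% and 14.4% of all genes. Leaving out Input 1 gave 5 members above and 5 below, beside 9.1% and 12.5% of all genes, leaving out Input 2, 4 members above and 7 below, beside 9.75% and 12.9% of all genes, and leaving out Input 3, 6 members above and 9 below, beside 18.1% and 20.2% of all genes. The 4 libraries gave 19 members above and 18 below, beside 25.2% and 31.5% of all genes, and with no centring 5 members above and 34 below, beside 9.05% and 56.4% of all genes.

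**Figure D1:**
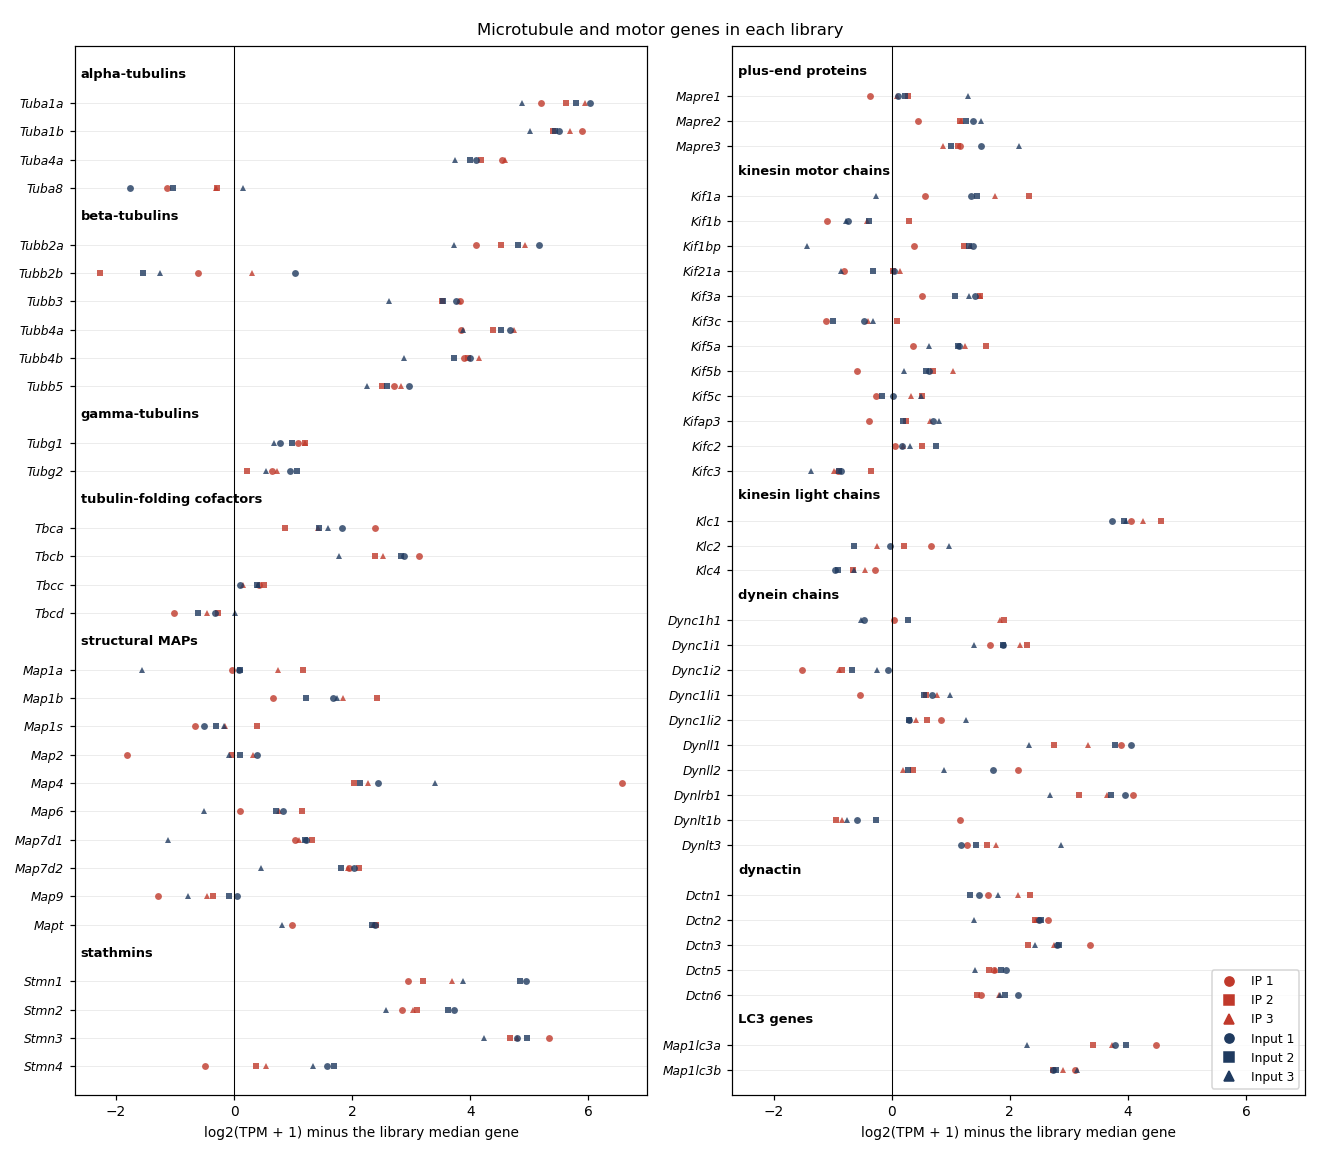
Level of each of the 65 genes in each library, as log2(TPM + 1) minus the library's median gene (horizontal axis), by family. Red marks IP and dark blue Input, and the marker shape gives the replicate, circle for 1, square for 2, triangle for 3. Stmn1 and Stmn4 have all red points left of all blue points, and Map4 has a single red circle, IP 1, far to the right.

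**Figure D2:**
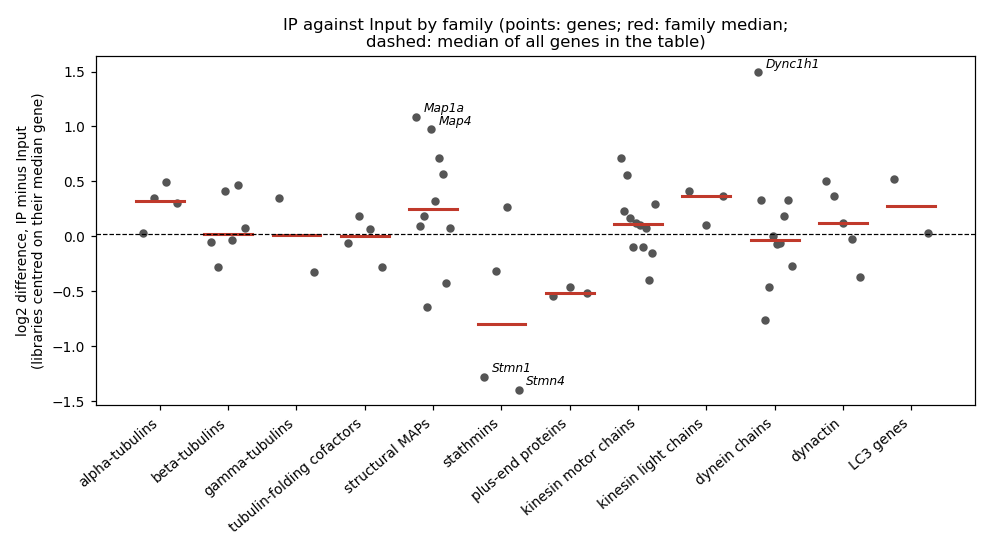
Difference between IP and Input for each gene (points, log2, centred libraries) by family, with the family median in red and the median of all genes as a dashed line. Stathmins have the lowest family median, -0.80, and Dync1h1 the highest single value, 1.49.

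Tubulin isotypes are near copies of each other, and the end of the coding sequence is where they differ most. It encodes the flexible acidic tail on the microtubule surface, which motors and MAPs contact and on which enzymes add chains of glutamate. The last 75 coding bases (25 codons with the stop) of each measured beta-tubulin are shown because they display which isotypes can be told apart in RNA and which hardly can. They are given 5′ to 3′ on the gene's strand, from GENCODE vM21 transcripts (GRCm38, which is mm10), and capitals mark bases that differ from, or have no partner in, Tubb2a in a global alignment.
Tubb2a: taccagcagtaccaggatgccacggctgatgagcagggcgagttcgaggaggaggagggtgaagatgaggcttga
Tubb2b: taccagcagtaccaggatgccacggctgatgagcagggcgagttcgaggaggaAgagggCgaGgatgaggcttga
Tubb4a: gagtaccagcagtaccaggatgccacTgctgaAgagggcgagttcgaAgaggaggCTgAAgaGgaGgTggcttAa
Tubb4b: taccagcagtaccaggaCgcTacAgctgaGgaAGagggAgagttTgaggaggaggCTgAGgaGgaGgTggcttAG
Tubb5: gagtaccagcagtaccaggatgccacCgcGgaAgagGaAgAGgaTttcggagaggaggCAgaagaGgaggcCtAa
Tubb3: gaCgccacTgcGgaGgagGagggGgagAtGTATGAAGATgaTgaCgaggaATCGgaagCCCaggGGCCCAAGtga

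Tubb2b differed from Tubb2a at 3 bases of this stretch and shared 96.5% of the whole coding sequence, while Tubb3, the isotype typical of neurons, differed at 34 and shared 83.4%. The other beta-tubulins, Tubb4a, Tubb4b and Tubb5, differed at 11, 17 and 13 bases and shared 84.01, 83.6 and 84.6%, so that over the whole coding sequence Tubb3 was about as far from Tubb2a as they were. The numbers of differing bases count the capitals, so bases of Tubb2a with no partner in the other isotype are left out. Glutamate codons, the sites to which such chains are added, made up 8 to 10 of the 25 codons in each of the 6. The stretches lie at chr13:34074468-34074542 (Tubb2a, minus strand) and chr8:123421608-123421682 (Tubb3, plus strand), each in the last coding exon. Of the 50-base windows in the transcript, 72.9% in Tuba1a, 73.8% in Tuba1b, 49.6% in Tubb2a, 39.3% in Tubb2b and 50.9% in Tubb4b also occur in another annotated gene, so how reads were divided among these and their copies is uncertain. For Tuba4a, Tuba8, Tubb4a and Tubb5 the share was 1.11% or less, and for Tubb3 it was 0%.

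Alpha-tubulin transcripts were among the most abundant of the set and had a family median of 0.33 over 4 genes and 4 positive differences, 0 of them called. That median was -0.10 after quantile normalization of the libraries. Tuba1a, the main alpha-tubulin of neurons, had 1051, 2828 and 3207 TPM across the IP libraries against 4251, 3767 and 937 across Input. Its log2 difference was 0.03 (SE 0.45), and the Input libraries held both the highest and the lowest centred value. Tuba1b, expressed in most cells, had 1705, 2435 and 2678 TPM across the IP libraries against 2952, 2947 and 1038 across Input, with a difference of 0.35 (SE 0.36). Tuba4a, an isotype of mature neurons (chromosome 1, 75214228 to 75219865, minus strand), had 661, 1041 and 1244 TPM across the IP libraries against 1111, 1079 and 426 across Input. After centring, its 3 IP values lay above its 3 Input values, 4.53, 4.18 and 4.58 in IP and 4.09, 3.99 and 3.74 in Input, a difference of 0.49 (SE 0.31) with a limma adjusted p of 0.709. Tuba8, the rarest of the 4, had 12.01, 46.3 and 41.03 TPM across the IP libraries against 18.3, 32.1 and 34.7 across Input. The groups overlapped, with Input 3 the highest library and IP 1 below Input 2 after centring (log2 difference 0.30). In the 4-library fit its log2 difference was 1.11 (SE 0.27, limma adjusted p = 0.0468).

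Beta-tubulins had a family median of 0.02, with 3 genes above and 3 below 0, and from -0.18 to 0.39 with each library left out (lowest without Input 3, highest without Input 1). Tubb2a, the most abundant, had 489, 1321 and 1571 TPM across the IP libraries against 2348, 1898 and 421 across Input (log2 difference -0.05, SE 0.47). Tubb4a, enriched in brain and in myelinating glia, had 409, 1204 and 1386 TPM across the IP libraries against 1657, 1554 and 469.5 across Input (log2 difference -0.03, SE 0.39). Tubb3 had 404, 656 and 725 TPM across the IP libraries against 878, 788 and 197 across Input (log2 difference 0.41, SE 0.37), and its level in Input 3 was the lowest of the 6 after centring. Tubb4b, a widely expressed isotype, had 426, 892 and 916 TPM across the IP libraries against 1037, 902 and 235 across Input and the highest difference of the family, 0.47 (SE 0.37). Without Input 3 the difference was 0.14 for Tubb4b and 0.07 for Tubb3, and in the 4-library fit 0.19 and 0.02. Tubb5, also widely expressed, had 187, 325 and 367 TPM across the IP libraries against 505, 411 and 152 across Input (log2 difference 0.08, SE 0.29), and Tubb2b, typical of immature neurons, had 17.7, 10.9 and 62.8 TPM across the IP libraries against 132, 22.4 and 12.5 across Input (log2 difference -0.28, SE 0.84). The groups overlapped for all 6 genes. Summed alpha-tubulin over summed beta-tubulin TPM was 1.55 ± 0.197 (SD, n = 3) in IP and 1.44 ± 0.186 (SD, n = 3) in Input (two-sided exact permutation p = 0.5). This ratio was not among the comparisons planned beforehand.

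Shares within a family do not depend on how libraries are scaled to each other, and 2 of the 6 beta-tubulin shares separated the groups. Of all 23 shares computed, 4 lay above in every IP library and 2 lay below. Shares of a family add up to the whole, so they are tied to each other. Tubb4b made up 22.1, 20.2 and 18.2% in IP and 15.8, 16.2 and 15.8% in Input of beta-tubulin TPM, or 20.2% ± 1.92 (SD, n = 3) in IP and 15.9% ± 0.224 (SD, n = 3) in Input. Tubb3 made up 20.9, 14.9 and 14.4% in IP and 13.4, 14.1 and 13.3% in Input. Both shares were higher in every IP library than in every Input library, though for Tubb3 the gap was small, 14.4% in IP 3 against 14.1% in Input 2. With 3 libraries a group, the smallest two-sided p of the exact permutation test is 0.1, and both shares reached it (Benjamini-Hochberg adjusted p = 0.383 over 23 shares computed in 10 groups of related genes), so no share could pass the threshold. Tubb2a made up 25.3, 29.95 and 31.2% in IP and 35.8, 34.04 and 28.3% in Input, with overlapping groups (exact p = 0.3). Among alpha-tubulins the groups overlapped for every gene. Tuba1a had 39.97% ± 8.07 (SD, n = 3) in IP and 45.9% ± 6.58 (SD, n = 3) in Input, an exact permutation p of 0.4, and IP 1 stood out with 30.7%.

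**Figure D3:**
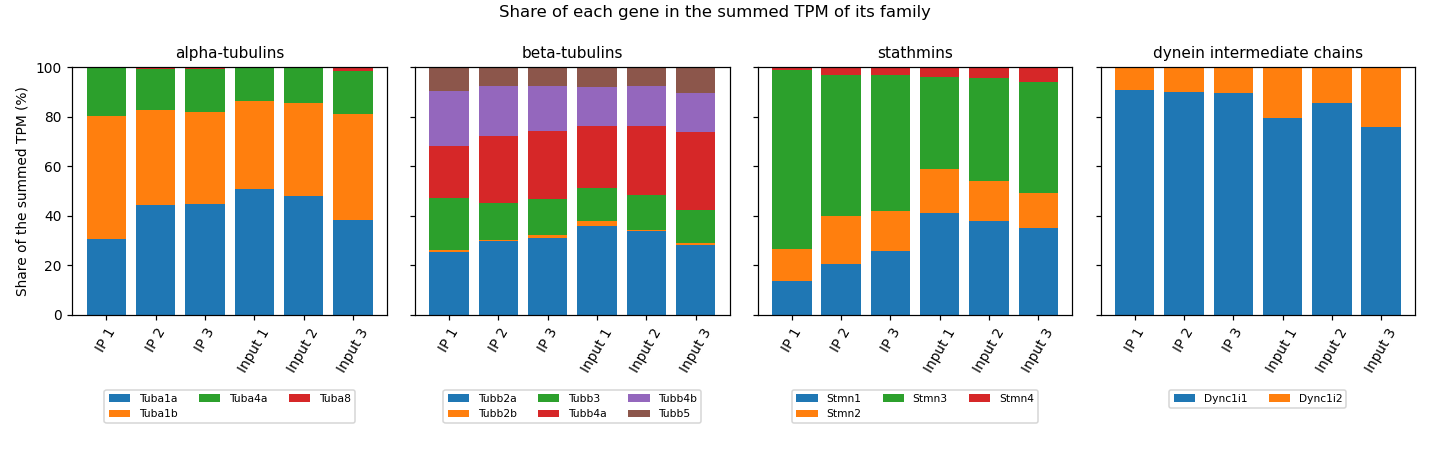
Share of each gene in the summed TPM of its family (stacked bars, percent) in each of the 6 libraries, for alpha-tubulins, beta-tubulins, stathmins and the dynein intermediate chains. Stmn1 takes 13.7 to 25.6% of stathmin TPM in IP and 35.05 to 41.3% in Input, and the alpha-tubulin bars differ most between IP 1 and Input 1.

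Gamma-tubulin, which seeds new microtubules, is made from a pair of genes that share 13.9% of the 50-base windows of Tubg1. Tubg1 had 60.02, 130.4 and 119 TPM across the IP libraries against 111, 134 and 49.95 across Input. On the centred scale all IP values were above all Input values, 1.09, 1.19 and 1.20 in IP and 0.78, 0.99 and 0.67 in Input, a difference of 0.35 (SE 0.23) with a limma adjusted p of 0.717. Tubg2, the copy known from brain, had 43.9, 66.2 and 84.6 TPM across the IP libraries against 125, 142 and 45.8 across Input and a difference of -0.32 (SE 0.27), opposite in sign. Folding cofactors, which assemble new tubulin pairs, centred on 0 with a median of 0.00. Tbcb, which binds alpha-tubulin, had 251, 298 and 296 TPM across the IP libraries against 479, 479.6 and 109 across Input (log2 difference 0.18, SE 0.40), and Tbcd, which binds beta-tubulin, had 13.1, 46.9 and 36.9 TPM across the IP libraries against 51.1, 43.9 and 31.4 across Input (log2 difference -0.28, SE 0.29). The other cofactors, Tbca and Tbcc, had differences of -0.06 and 0.07, Tbca with 149, 103 and 138 TPM across the IP libraries against 231, 184 and 95.1 across Input. The range of Tbca was set within IP, where IP 1 was the highest and IP 2 the lowest after centring.

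Stathmins had the lowest family median, -0.80, negative under every scaling and every set of libraries tried. Stmn1, the founding stathmin and abundant in growing and immature cells (chromosome 4, 134468320 to 134473843, plus strand), had 220.0, 529 and 668 TPM across the IP libraries against 2019, 1949.8 and 471 across Input. Relative to the median gene these were 2.95, 3.20 and 3.69 in IP and 4.95, 4.84 and 3.88 in Input, so every IP library was below every Input library, a mean log2 difference of -1.28 (SE 0.41), with a limma unadjusted p of 0.0151 and an adjusted p of 0.649. Stmn4, a neuronal stathmin (chromosome 14, 66344296 to 66361680, plus strand), had 19.5, 73.1 and 74.3 TPM across the IP libraries against 193, 218 and 80.3 across Input, and after centring -0.48, 0.37 and 0.54 in IP and 1.57, 1.69 and 1.34 in Input. Its difference was -1.39 (SE 0.32) with a limma unadjusted p of 0.00315 and an adjusted p of 0.649, again with no overlap. In the 4-library fit both were lower in IP, with log2 differences of -1.45 (SE 0.21, limma adjusted p = 0.00604) for Stmn1 and -1.18 (SE 0.18, limma adjusted p = 0.00907) for Stmn4. With each library left out in turn the difference ran from -1.62 to -1.08 for Stmn1 and from -1.59 to -1.08 for Stmn4. Of the 50-base windows of Stmn1, 36.5% occur in another gene, mostly the gene model Gm11223, so how reads were divided between them is uncertain, while Stmn4 shares 0%.

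The other stathmins are neuronal proteins carried on the Golgi and vesicles. Stmn3, the most abundant of the family, had 1159, 1458 and 1438 TPM across the IP libraries against 1812, 2126 and 604 across Input (log2 difference 0.27, SE 0.38). Stmn2, which supports axon growth and repair, had 204, 489 and 423 TPM across the IP libraries against 863, 834 and 189 across Input (log2 difference -0.32, SE 0.38). Neither separated the groups, and Input 3 was the lowest library for both after centring. Within the family, Stmn3 made up 72.3, 57.2 and 55.2% in IP and 37.1, 41.4 and 44.9% in Input, and Stmn1 13.7, 20.8 and 25.6% in IP and 41.3, 38.02 and 35.05% in Input. Means were 61.6% ± 9.36 (SD, n = 3) in IP and 41.2% ± 3.94 (SD, n = 3) in Input for Stmn3 and 20.1% ± 5.99 (SD, n = 3) in IP and 38.1% ± 3.14 (SD, n = 3) in Input for Stmn1, and neither share overlapped between groups (exact permutation p = 0.1 each, the smallest possible, adjusted p = 0.383). Stmn4 made up 2.31% ± 0.949 (SD, n = 3) in IP and 4.72% ± 1.09 (SD, n = 3) in Input, also with no overlap. Shares of the family add up to the whole, so a lower share of Stmn1 raises that of Stmn3. These are not separate results. For Stmn2 the means were 16.05% and 15.99%, with overlapping groups. IP 1 had the lowest share of Stmn1, Stmn2 and Stmn4 and the highest of Stmn3.

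Astrocyte markers also had negative differences. Of 8 astrocyte markers 3 had values (Gfap, Agt and Ntsr2), all 3 with negative differences, a median of -0.62 over 6 libraries and -1.23 over 4, and a summed level of 57.5 to 157 TPM in IP and 89.6 to 394 in Input. Aqp4, Slc1a3, Slc1a2, Aldh1l1 and Gja1 had no value. Of the 4 immature neuron markers listed, Dcx, Sox11 and Neurod1 had no value. The remaining marker, Tubb3, had a difference of 0.41 over 6 libraries and 0.02 over 4, with overlapping groups. The part of astrocytes in the stathmin differences was not tested.

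Structural MAPs had a median of 0.25, with 8 of 10 differences above 0, against 0.07 and 6 of 10 in the 4-library fit. Single libraries moved this median, to 0.56 without IP 1, 0.45 without Input 1, 0.41 without Input 2, 0.00 without IP 2 and 0.01 without Input 3. Map1a, a stabiliser of mature neuronal microtubules (chromosome 2, 121289600 to 121310832, plus strand), had 27.01, 129 and 86.2 TPM across the IP libraries against 68.1, 71.9 and 9.93 across Input. Its difference of 1.09 (SE 0.52) came with overlapping groups, IP 1 lying below Inputs 1 and 2, and without Input 3, its lowest library, it was 0.54. In the 4-library fit Map1a was higher in IP, with a log2 difference of 0.87 (SE 0.21, limma adjusted p = 0.0446). Map1b, its relative known from growing axons, had 44.5, 308 and 185 TPM across the IP libraries against 208, 157 and 107 across Input (log2 difference 0.09, SE 0.46, and 0.68 in the 4-library fit). Of the TPM of the pair, Map1a made up 37.8, 29.5 and 31.8% in IP and 24.6, 31.3 and 8.5% in Input, a share whose groups overlapped (exact p = 0.2).

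Tau and MAP2, the classical markers of axons and dendrites, did not separate the groups. Mapt, which encodes tau, had 55.5, 305 and 265 TPM across the IP libraries against 339.6, 342 and 55.2 across Input (log2 difference 0.07, SE 0.56), and IP 2, IP 3, Input 1 and Input 2 lay between 2.33 and 2.41 after centring. Map2 had 7.17, 54.97 and 63.6 TPM across the IP libraries against 84.8, 71.95 and 29.04 across Input and the lowest difference of the family, -0.64 (SE 0.54). IP 1 was its lowest library, and without IP 1 the difference was 0.00. Map6, which protects microtubules from cold, had 29.9, 127 and 86.7 TPM across the IP libraries against 115, 111 and 21.6 across Input (log2 difference 0.32, SE 0.44). Map4, a MAP of most cell types, had 2733, 235 and 248 TPM across the IP libraries against 351, 298 and 336 across Input. The IP 1 value was far above all others, and its difference of 0.97 (SE 1.15) became -0.50 without that library. Map7d1 and Map7d2, of the family that recruits kinesin to microtubules, had differences of 0.71 and 0.56, which became 0.00 and 0.10 in the 4-library fit. Map1s and Map9 had 0.18 and -0.43.

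The plus-end proteins EB1, EB2 and EB3, encoded by Mapre1, Mapre2 and Mapre3, track growing tips, and all 3 had negative differences with a median of -0.51, which was -0.21 without Input 3. Mapre3, the neuronal form, had 62.7, 125 and 93.6 TPM across the IP libraries against 186, 135 and 142 across Input (log2 difference -0.51, SE 0.34). Mapre1 had 21.2, 68.8 and 54.2 TPM across the IP libraries against 69.6, 78.5 and 77.3 across Input (log2 difference -0.54, SE 0.37). Mapre2 had 38.1, 127 and 116 TPM across the IP libraries against 168, 163 and 90.3 across Input, and all its IP values were below all its Input values after centring, 0.45, 1.15 and 1.18 in IP and 1.37, 1.26 and 1.51 in Input, a difference of -0.46 (SE 0.28) with a limma adjusted p of 0.709. After centring, IP 1 was low in Mapre1 and Mapre2, and Input 3 was the highest library for all 3 genes. In the 4-library fit the median was -0.15 and 0 of the 3 were called.

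Kinesin motor chains had a median of 0.11 over 12 genes and 8 differences above 0. With each library left out that median ran from -0.14 (without IP 2) to 0.42 (without IP 1), and it was -0.07 without Input 3, 0.01 without IP 3 and 0.18 without Input 1. Kif1a, which carries synaptic vesicle precursors (chromosome 1, 93015464 to 93101951, minus strand), had 41.2, 289 and 174 TPM across the IP libraries against 165, 183 and 25.6 across Input and the highest difference, 0.71 (SE 0.60), which was 0.16 without Input 3 and 1.21 without IP 1. Kif1b, a related carrier of mitochondria and vesicle precursors, had 12.4, 69.8 and 38.05 TPM across the IP libraries against 37.96, 51.4 and 17.8 across Input (log2 difference 0.23, SE 0.37). Kif5a, Kif5b and Kif5c are the heavy chains of conventional kinesin, Kif5a and Kif5c being neuronal. Kif5a had 35.6, 173 and 122 TPM across the IP libraries against 144, 147 and 48.7 across Input (log2 difference 0.10, SE 0.37). Kif5b had 18.03, 92.7 and 105 TPM across the IP libraries against 101, 101 and 36.02 across Input (log2 difference -0.09, SE 0.43), and Kif5c had 22.8, 81.2 and 63.9 TPM across the IP libraries against 65.5, 59.5 and 43.9 across Input (log2 difference 0.08, SE 0.30). Among the 3, Kif5a made up 46.1% ± 4.02 (SD, n = 3) in IP and 43.99% ± 5.36 (SD, n = 3) in Input, an exact permutation p of 0.6. IP 1 held the lowest centred value of all 3 Kif5 genes.

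Of the remaining kinesins, Kif3a and Kif3c, motors of the kinesin-2 class, had differences of -0.09 and 0.12, and Kifap3, their cargo-binding partner, had the lowest value, -0.39 (SE 0.33), with 20.9, 66.7 and 80.7 TPM across the IP libraries against 105, 76.97 and 54.6 across Input. Kif21a, a motor that restrains microtubule growth and in which human mutations cause a congenital disorder of the oculomotor system, had 0.17. Kifc2 and Kifc3, motors that move towards minus ends, had -0.15 and 0.29. Kif1bp, a kinesin-binding protein that the symbol rule takes in although it is no motor, had 36.4, 133 and 129 TPM across the IP libraries against 168, 167 and 10.8 across Input (log2 difference 0.56, SE 0.75). Input 3 was far below the other 5 libraries there, and without it the difference was -0.36. Kinesin light chains link the Kif5 motors to cargo, and their 3 differences were above 0. Klc1, the neuronal light chain (chromosome 12, 111758849 to 111807844, plus strand), had 475, 1356 and 990.0 TPM across the IP libraries against 863, 1040.4 and 498 across Input, close to the level of Tuba4a. Its centred values did not overlap, 4.05, 4.56 and 4.25 in IP and 3.72, 3.93 and 3.96 in Input, a difference of 0.42 (SE 0.31) with a limma adjusted p of 0.735. Klc2 had 44.4, 65.1 and 42.9 TPM across the IP libraries against 63.3, 42.6 and 61.8 across Input (log2 difference 0.11, SE 0.45), and Klc4 had a difference of 0.37.

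The dynein heavy chain had the highest difference of the 65 genes. Dync1h1, the chain that holds the motor (chromosome 12, 110601452 to 110666945, plus strand), had 28.4, 213 and 185 TPM across the IP libraries against 46.4, 81.1 and 21.5 across Input, or, relative to the median gene, 0.04, 1.90 and 1.84 in IP and -0.46, 0.27 and -0.51 in Input. IP 2 and IP 3 were far above every Input library, and IP 1 lay just under Input 2. The difference was 1.49 (SE 0.53), with a limma unadjusted p of 0.0245 and an adjusted p of 0.649, and it was 1.96 (SE 0.25, limma adjusted p = 0.00373) in the 4-library fit. With each library left out in turn it ran from 1.17 to 2.10. Its transcript of 14342 bases is the longest of the set.

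The next highest dynein differences were 0.33, for Dync1i1 and Dynlt1b. Dync1i1, the intermediate chain typical of neurons, had 90.3, 279 and 234 TPM across the IP libraries against 241, 249.9 and 82.7 across Input (log2 difference 0.33, SE 0.29), and Dync1i2, the widely expressed one, had 8.95, 30.9 and 27.1 TPM across the IP libraries against 61.7, 41.9 and 25.97 across Input. Dync1i2 was lower in every IP library than in every Input library after centring, -1.53, -0.85 and -0.89 in IP and -0.06, -0.67 and -0.25 in Input, a difference of -0.76 (SE 0.29) with a limma unadjusted p of 0.0331 and an adjusted p of 0.649. Of the TPM of the pair, Dync1i1 made up 90.98, 90.03 and 89.6% in IP and 79.6, 85.7 and 76.1% in Input, 90.2% ± 0.696 (SD, n = 3) in IP and 80.4% ± 4.83 (SD, n = 3) in Input, with no overlap (exact permutation p = 0.1, the smallest possible, adjusted p = 0.383). Heavy-chain TPM per TPM of the 2 intermediate chains, a ratio chosen after the values were seen, was 0.287, 0.688 and 0.706 in IP and 0.153, 0.278 and 0.197 in Input. A test of a ratio picked this way would restate the values that prompted it, so the ratio is given as a description only.

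Light chains connect dynein to cargo and stabilise the complex. Dynll1 and Dynll2 encode LC8, a hub that many other proteins bind. Dynll1 had 423, 385 and 519 TPM across the IP libraries against 1083, 941 and 159 across Input (log2 difference -0.07, SE 0.53), and Dynll2 had 125, 72.7 and 58.4 TPM across the IP libraries against 214, 81.4 and 58.04 across Input (log2 difference -0.06, SE 0.59). The most abundant dynein gene was Dynlrb1, a roadblock light chain, with 485, 515 and 649.9 TPM across the IP libraries against 1008, 893 and 205 across Input (log2 difference 0.18, SE 0.44). Dynlt3 and Dynlt1b, Tctex-type light chains, had -0.27 and 0.33, and 83.2% of the windows of Dynlt1b occur in other genes, mainly its copy Dynlt1a. The light intermediate chains Dync1li1 and Dync1li2, which bind cargo adaptors, had -0.46 and 0.00. Over the 10 dynein genes the median was -0.03, and from -0.12 to 0.28 with each library left out.

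Dynactin, the partner that switches dynein on, had a median of 0.12 over 5 genes, and from -0.03 to 0.35 with each library left out (lowest without IP 1, highest without IP 2). Dctn1, its microtubule-binding subunit p150 (chromosome 6, 83165920 to 83200117, plus strand), had 88.01, 289 and 228 TPM across the IP libraries against 181, 169 and 111 across Input. After centring the groups overlapped in that IP 1 lay below Input 3, and the difference was 0.50 (SE 0.29) over 6 libraries and 0.84 (SE 0.19, limma adjusted p = 0.035) over 4. Dctn6, a subunit of the pointed end of the complex, went the other way, with 81.2, 156 and 183 TPM across the IP libraries against 288, 258 and 114 across Input and centred values of 1.52, 1.45 and 1.82 in IP and 2.14, 1.92 and 1.84 in Input, a difference of -0.37 (SE 0.25) without overlap (limma adjusted p = 0.726). IP 3 and Input 3 lay almost together there. Dctn3, the most abundant, had 292, 285 and 348 TPM across the IP libraries against 454, 482 and 171 across Input (log2 difference 0.12, SE 0.35), and Dctn2 and Dctn5 had 0.37 and -0.02. The LC3 genes Map1lc3a and Map1lc3b, named after their co-purification with MAP1 and known as markers of autophagosomes, had 637, 611 and 686 TPM across the IP libraries against 900.3, 1063 and 156 across Input (log2 difference 0.52, SE 0.53) and 246, 379.7 and 389 TPM across the IP libraries against 435, 467 and 279.7 across Input (log2 difference 0.03, SE 0.28).

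Transcript length moved with several of these values. Across the 65 genes, the difference of IP 1 from the mean of IP 2 and IP 3 correlated with the length of the longest complete transcript at Spearman's rho = -0.645, and across 5534 genes of the table at -0.45. IP 1 was lower than the mean of IP 2 and IP 3 in 14 of the 15 members with transcripts over 5000 bases (median -1.04), Map4 being the exception, and in 3 of the 11 under 1500 bases (median 0.68). Over 6 libraries the difference between IP and Input had a rho of 0.116 with length, but in the 4-library fit rho was 0.608 across the members and 0.286 across all genes. There the long members had a median of 0.29 and the short ones of -0.40. Dync1h1, Map1a and Map1b, the longest 3, had positive values in that fit, and Stmn1 and Stmn4 are among the 11 shortest. Stmn3, of 1136 bases against 1060 for Stmn1, had -0.15 there. Input 3 against Inputs 1 and 2 had a rho of 0.181 over the members. Genes in these correlations share libraries and are not independent, and the part of length in the differences was not tested.

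**Figure D4:**
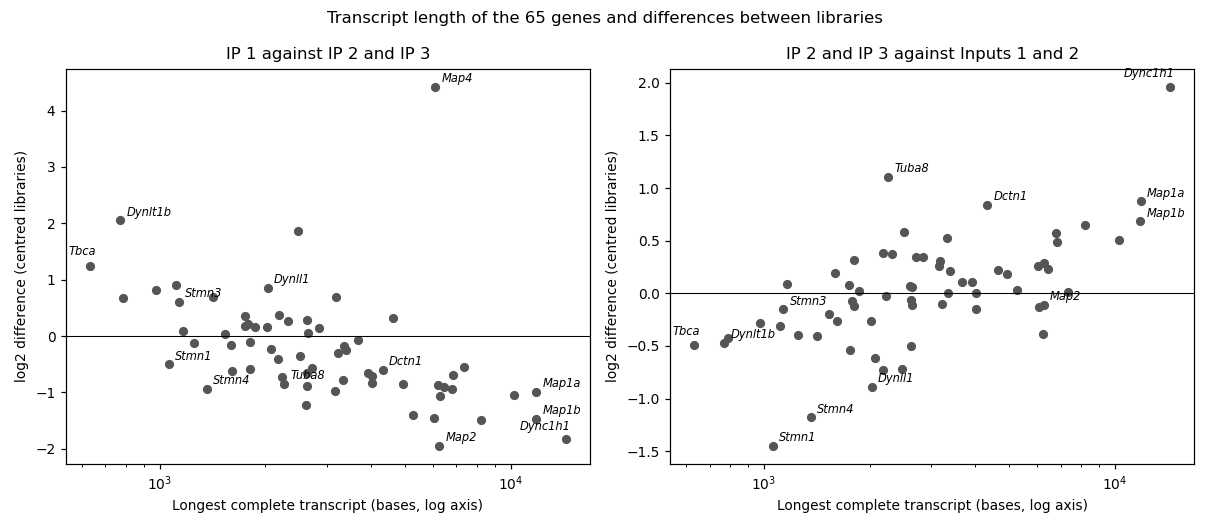
Longest complete transcript of each of the 65 genes (horizontal, log axis, bases) against the log2 difference of IP 1 from IP 2 and IP 3 (left) and of IP 2 and IP 3 from Inputs 1 and 2 (right), centred libraries. Points fall with length on the left (rho = -0.645) and climb with it on the right (rho = 0.608).

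**Figure D5:**
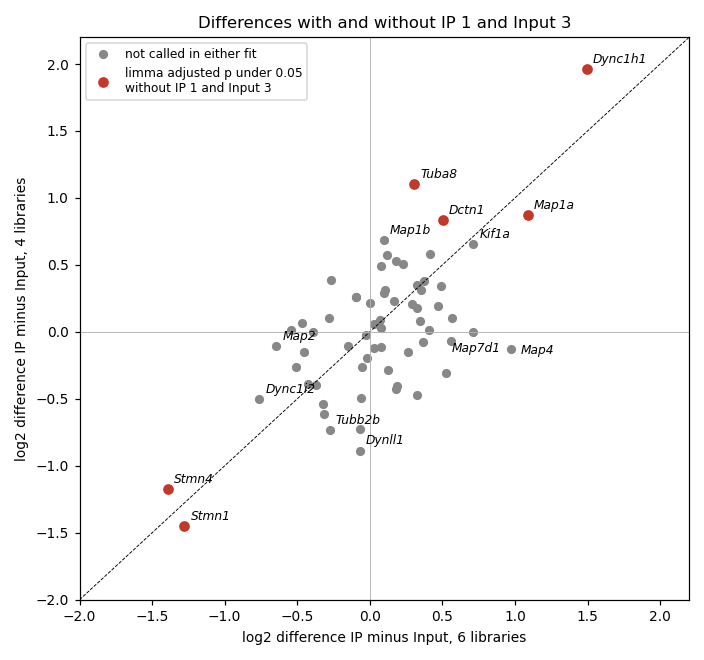
Log2 difference between IP and Input over 6 libraries (horizontal) and over 4, without IP 1 and Input 3 (vertical), for each of the 65 genes, with the line of equality dashed. The 6 genes in red have a limma adjusted p under 0.05 in the 4-library fit, and Map4 moves from 0.97 to -0.13.

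Other genes of the pathway, from a list of 108 tubulin-modifying enzymes, severing and stabilising proteins, nucleation factors, dynein regulators, cargo adaptors, tau kinases and chaperonin subunits, were measured in part. Of 61 with values, 0 were called in either direction (3 higher and 3 lower at an unadjusted p under 0.05 in limma), and the median difference was 0.03. After centring, all IP values lay above all Input values in 4 and below them in 4, 6.56% each beside 6.93% and 9.71% of all genes. The smallest p belonged to Dst, a giant linker of microtubules to other filaments, with 16.8, 76.3 and 48.4 TPM across the IP libraries against 23.2, 29.03 and 10.8 across Input (log2 difference 1.24, SE 0.32), all IP values lying above all Input values after centring. Svbp, the partner of the enzymes that remove tyrosine from alpha-tubulin, had 8.67, 17.5 and 15.9 TPM across the IP libraries against 33.4, 30.9 and 15.5 across Input (log2 difference -0.62, SE 0.21), with every centred IP value below every Input value. Dpysl3, a tubulin-binding protein of growing axons, had 32.4, 91.4 and 89.8 TPM across the IP libraries against 60.2, 70.7 and 19.5 across Input (log2 difference 0.79, SE 0.29), again without overlap after centring. Madd, an adaptor for the cargo of Kif1a and Kif1b, had 162, 92.8 and 69.1 TPM across the IP libraries against 75.9, 61.1 and 16.7 across Input (log2 difference 1.47, SE 0.57). Its centred IP values all lay above its centred Input values, with IP 1 far above the rest. The 4-library fit called 4 of the 61 higher, Dst, Macf1, Clasp1 and Mapk8ip2 (log2 1.49, 1.18, 0.92 and 0.90, limma adjusted p = 0.00933, 0.0363, 0.0422 and 0.04901), and 0 lower, beside 3.38% and 2.89% of all genes. Macf1 and Clasp1 link and stabilise microtubule ends, Mapk8ip2 is an adaptor of kinesin, and the last 3 names were taken after their values were seen.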

How the data were processed

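RNA was measured in 6 libraries, 3 IP and 3 Input, grouped by their titles. The deposited table gives TPM per gene, which the authors made with RSEM and DESeq on mm10, per the submitters' processing notes. Their versions, the annotation and the read depth are not given in the sources used here, and no interval for counting error can be given. Per the file header the values are labelled by library, and the lowest TPM listed is 7.

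Here log2(TPM + 1) was centred on each library's median gene and fitted with limma 3.58.1 (R 4.3.3, eBayes with trend). P-values were Benjamini-Hochberg adjusted over 5538 genes, with a threshold of 0.05. A minimum mean of 1 TPM removed 0 genes. Shares of a family's summed TPM were compared with exact two-sided permutation tests. The limma script was tested on simulated data with less spread within groups than is typical of these libraries. That checks the code and does not show which differences could be found here. Transcript lengths, coding ends and shared windows come from GENCODE vM21 (GRCm38). Lengths are of the longest transcript with a start and a stop codon, where a gene has one. Coding ends and windows use, among such transcripts, the one with the longest coding sequence. Lengths were found for 5534 genes.

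Values in every library are given for each family's most abundant member, its highest and lowest difference, members with non-overlapping groups and a difference of at least 1, and a set of named genes, and for up to 4 genes of the pathway list with the smallest p. The members and lists were chosen with earlier results of these data known. Alternatives were a pseudocount of 0.1, no centring, quantile normalization, a minimum mean of 10 TPM, no variance trend, a replicate block, leaving out each library, and leaving out IP 1 and Input 3 together. Some sequences and marker genes are not reported here.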

Additional observations from a re-analysis of the deposited data

How the results depend on the processing

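Depth is unknown, so counting error could not be set beside any value. Over all 6 libraries limma called 0 members under every other scaling, pseudocount, filter and variance setting tried, and with each library left out in turn. Without centring, the median of all genes was -0.23, the median of the members -0.15, and 17 members changed sign. The medians were then 0.080 for alpha-tubulins, -0.23 for gamma-tubulins and -0.12 for dynactin, and 0 members had all IP values above and 3 below all Input values (1.7% and 6.21% of all genes). With quantile normalization the alpha-tubulin median was -0.10 and 0 members lay above (6.32% of all genes). With each library left out, 4 to 13 members lay above (9.1 to 18.1% of all genes) and 5 to 9 below (12.5 to 20.2%), the dynein median ran from -0.12 to 0.28 (the latter without Input 1) and the median of all members from -0.067 (without Input 3) to 0.19. The 13 above came without IP 1 (20% of members, 11.5% of all genes) and the 9 below without Input 3 (13.8% and 20.2%).

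Without IP 1 and Input 3, 4 members were called higher and 2 lower, 19 (29.2%) lay above and 18 (27.7%) below, beside 25.2% and 31.5% of all genes, 19 changed sign, and the medians were -0.15 for plus-end proteins, -0.19 for dynactin and -0.12 for LC3 genes. The Stmn4 share differed by -1.24 percentage points. Those libraries left out and no centring, a setting chosen after seeing the data, gave 1 member higher and 11 lower, 5 (7.69%) above and 34 (52.3%) below, beside 9.05% and 56.4% of all genes, and medians of -0.076 for alpha-tubulins, -0.40 for gamma-tubulins, -0.44 for folding cofactors, -0.47 for dynein, -0.48 for dynactin, -0.41 for LC3 genes and -0.27 for all members. There Tbcb (-0.69), Dynlrb1 (-0.71), Dctn3 (-0.57) and Map1lc3a (-0.60) were called lower, against positive differences over 6 libraries. The cause of these moves was not tested.

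The labels do not say what same-numbered IP and Input libraries share, and they were not treated as pairs. Their deviations from the group means correlated at -0.10, 0.25 and -0.17, and only number 2 correlated best with its own number. With the replicate number as a block, 0 members were called, 3 rather than 4 had an unadjusted p under 0.05, and the smallest limma adjusted p of a member was 0.780.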
